A study of Mus musculus with 8 samples.

Results

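The genes described here are 48 mouse genes of mitosis and the preceding G2 phase, out of 43346 genes in the deposited count table, followed in 3 kinds of mouse macrophage with and without lipopolysaccharide (LPS). They were taken as a fixed list of gene symbols with known mitotic roles, and all 48 were found in the table. No measured value entered the list, but it was drawn up with earlier results of these data known. The genes fall into 8 roles: 9 cyclins, kinases and phosphatases of mitotic entry with the transcription factor Foxm1, 7 genes of the spindle checkpoint and of the anaphase-promoting complex, 4 of the chromosomal passenger complex, 6 of the kinetochore, 9 kinesin motors, 5 of the spindle and centrosome, 3 of cytokinesis, and 5 of chromosome structure.

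A cell enters mitosis when cyclin B and the kinase Cdk1 act together, and leaves it when the anaphase-promoting complex marks cyclin B and securin for destruction. Most mitotic genes are transcribed in a wave that peaks in G2 and mitosis, and their promoters often carry a CCAAT box, bound by NF-Y, and a cell cycle homology region (CHR), bound by the MuvB complex together with B-Myb and FoxM1 in dividing cells and with the p130 or p107 pocket proteins in resting ones. Bone marrow-derived macrophages divide in the presence of the growth factor CSF1, and bacterial products such as LPS, which is sensed by the receptor TLR4, are known to halt that division.

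Polyadenylated RNA of 6 groups was sequenced as 8 libraries, single end, from a stranded kit. Bone marrow-derived macrophages (BMDM), cultured in L929-conditioned medium, gave 2 libraries unstimulated at 0 h and 2 libraries after 3 h of LPS. Cells labelled hMPDM, an abbreviation that the labels do not spell out, gave 1 library unstimulated and 1 after 3 h of LPS. RAW 264.7 (RAW), a macrophage-like mouse tumour line grown in DMEM with serum, also gave 1 library per state. Neither the dose of LPS nor the genotype or age of the mice is given in the labels. Nothing in the labels says that the paired BMDM libraries came from separate cultures, so every p-value measures only the spread between those samples, which may be technical.

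Library totals lay between 3116434 counts (RAW, unstimulated) and 19307312 counts (BMDM, unstimulated, replicate 2). Every one of the 48 genes had at least 49 counts in every library, the lowest being Ttk in stimulated hMPDM, and all 48 passed the filter on low counts. Levels are library-scaled counts (CPM) adjusted by TMM, a method that equalises libraries on genes that do not differ between them. The 8 macrophage marker genes fixed for the check, Csf1r, Adgre1, Cd68, Cd14, Fcgr1, Mertk, Itgam and Lyz2, were counted in every library and together took 1.47% to 2.01% of the counts. Markers of T and NK cells were at 0 in all 8 libraries, and fibroblast markers did not exceed 4 counts in any. The 7 progenitor markers, such as Kit and Cd34, summed to between 23.8 and 43.1 CPM in BMDM and hMPDM and were all at 0 in RAW, where the mitotic genes were highest, and their part in any result was not tested. The 6 neutrophil markers summed to between 55.8 and 90.03 CPM in BMDM, to 12.9 and 25.5 CPM in hMPDM before and after LPS, and to at most 4.49 CPM in RAW.

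A further comparison concerned the stimulated hMPDM library. A set of 16 genes was picked that reached 5 CPM in BMDM with and without LPS. Each also had to stand at no more than 5% of the BMDM level in unstimulated hMPDM. Their sum there, 1.35% of that level, was thus low by the choice of genes. In the stimulated hMPDM library, where no such limit was set, the same genes summed to 10.8% of the stimulated BMDM level. No set was picked by low levels in that library, so the rise cannot be read as a difference between the libraries. Whether BMDM RNA was present in the stimulated hMPDM library was not tested. Results that use it are given with and without the 10.8%, called the BMDM share below, where it changes a call. In bulk RNA, fewer dividing cells and less mitotic RNA per dividing cell cannot be told apart.

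Promoter windows are shown first because most of the 48 genes share short elements close to their start that were no part of how they were listed. Of the 48 genes, 41 had a promoter in a RefSeq table of the mouse genome (GRCm38.p6, the assembly that the mm10 name refers to), which holds 250 bases before and 50 bases after each start. The windows below hold the 120 bases just before the RefSeq start, 5′ to 3′ on the strand of the gene, and contain no annotated exon. Capitals mark the CHR hexamer TTTGAA, or TTCAAA where it lies on the other strand, and the CCAAT box, or ATTGG where it lies on the other strand. Espl1 (the protease separase, chr15:102296173-102296292), Kif11 (chr19:37376262-37376381), Kif22 (chr7:127042421-127042540) and Top2a (topoisomerase II alpha, chr11:99024190-99024309) carry a CHR hexamer within 50 bases before the start, next to CCAAT boxes:
Espl1: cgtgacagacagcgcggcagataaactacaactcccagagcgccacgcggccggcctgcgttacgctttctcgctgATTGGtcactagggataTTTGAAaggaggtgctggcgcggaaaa
Kif11: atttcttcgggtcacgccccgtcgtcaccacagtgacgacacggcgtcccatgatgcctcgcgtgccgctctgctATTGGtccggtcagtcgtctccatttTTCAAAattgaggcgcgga
Kif22: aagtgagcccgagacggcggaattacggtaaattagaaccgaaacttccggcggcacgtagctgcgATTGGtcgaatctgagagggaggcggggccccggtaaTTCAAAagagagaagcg
Top2a: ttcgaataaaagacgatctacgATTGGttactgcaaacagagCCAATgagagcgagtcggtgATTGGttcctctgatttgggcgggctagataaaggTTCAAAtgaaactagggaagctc

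Mki67 (the proliferation antigen Ki-67, chr7:135716380-135716499) has its pair of CHR hexamers farther upstream. Kif18b (chr11:102925125-102925244) and Ttk (chr9:83834569-83834688), which are among the genes with the largest LPS responses, have CCAAT boxes in this window and their CHR hexamer just after the start. Cdc25b (chr2:131186828-131186947), with a response of the same size, has a CCAAT box and no TTTGAA within the 300 bases searched around its start. Among genes not shown, Ncaph, Birc5, Nuf2 and Nusap1 have neither TTTGAA nor CCAAT within those 300 bases. Ncaph, Birc5 and Nuf2 fell after LPS in BMDM, with log2 changes of -1.07, -0.56 and -0.39, and Nusap1 did not pass. Mad2l1 (chr6:66535101-66535220) and Plk4 (chr3:40799831-40799950) did not pass the test for an LPS response either. For both, the gene start in the count table lies downstream of the 300 bases searched, so a hexamer near that start would be missed. Mad2l1 and Plk4 have neither element in this window:
Mki67: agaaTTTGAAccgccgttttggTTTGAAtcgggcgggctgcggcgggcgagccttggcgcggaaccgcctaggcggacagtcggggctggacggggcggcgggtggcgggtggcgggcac
Kif18b: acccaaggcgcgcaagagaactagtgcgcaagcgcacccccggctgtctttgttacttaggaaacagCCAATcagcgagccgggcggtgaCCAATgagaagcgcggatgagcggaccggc
Ttk: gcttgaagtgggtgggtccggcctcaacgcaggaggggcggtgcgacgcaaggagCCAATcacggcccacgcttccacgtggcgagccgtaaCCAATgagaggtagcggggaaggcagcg
Cdc25b: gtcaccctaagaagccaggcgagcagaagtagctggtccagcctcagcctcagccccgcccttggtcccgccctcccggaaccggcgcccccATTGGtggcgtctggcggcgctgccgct
Mad2l1: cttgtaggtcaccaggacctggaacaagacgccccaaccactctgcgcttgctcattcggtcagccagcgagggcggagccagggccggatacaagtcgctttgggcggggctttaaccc
Plk4: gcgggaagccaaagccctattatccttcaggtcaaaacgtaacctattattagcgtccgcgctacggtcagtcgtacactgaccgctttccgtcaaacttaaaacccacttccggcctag

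Searched over the full promoter on both strands, TTTGAA was present in 31 of the 41 mitotic genes (75.6%). It was present in 12.0% of the 9549 tested genes with a promoter, and in 18.1% of the 27025 genes of the promoter table. Its place was also narrow. Within 50 bases of the start on either side, 70.7% of the mitotic promoters held it, against 3.02% of the promoters of all tested genes. The pentamer CCAAT was found in 30 of the 41 (73.2%), against 39.1% of all tested genes, and 19 of the 41 (46.3%) held at least 2 copies, against 15.3%. The CCAAT share was of similar size on neighbouring lists, 69.8% in 53 promoters of other mitotic genes and 63.0% in 27 of G1/S and DNA replication genes, and at least 2 copies were found in 47.2% and 40.7% of these. The TTTGAA share was 56.6% on the other mitotic list and 22.2% on the G1/S list. TTTAAA, searched as a variant of the CHR, was found in 10 of the 41 (24.4%), against 9.08% of all tested genes. Both elements together occurred in 26 of the 41 (63.4%) and in 5.07% of tested genes. An E2F site, searched as TTCCCGC or TTGGCGC, was found in 8 of the 41 (19.5%), closer to the 12.5% of all tested genes than to the 55.6% of the 27 G1/S promoters. A match is a string of letters and not a bound site. In the promoter of Cdca8, and in no other of the 41, the hexamer and a CCAAT box on the other strand share a base.

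**Figure D1:**
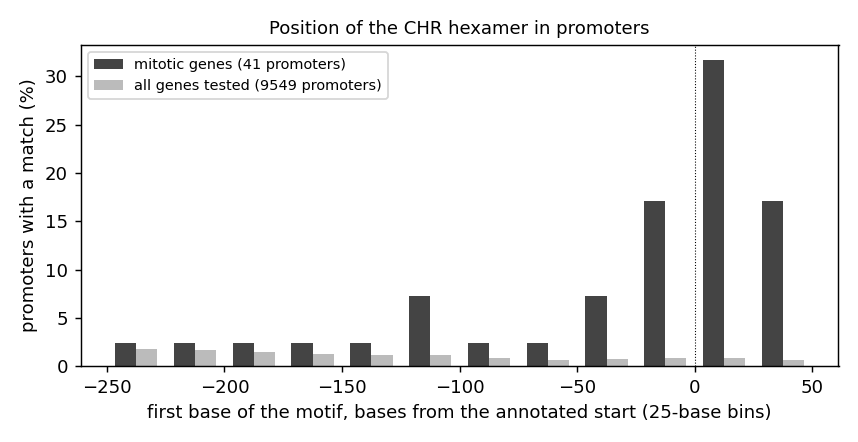
Share of promoters (%, vertical axis) with the CHR hexamer TTTGAA on either strand in each 25-base bin from 250 bases before to 50 bases after the annotated start (horizontal axis), for the 41 mitotic genes and for all 9549 tested genes with a promoter. The mitotic promoters peak at 31.7% in the bin that begins at the start, with 17.1% in each of the bins next to it, and the bars of all tested genes stay low throughout.

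In BMDM, mitotic transcripts were lower after 3 h of LPS across all 8 roles. The summed level of the 48 genes was 5238 and 5439 CPM in the unstimulated libraries and 3466 and 3429 CPM in the LPS libraries, so the stimulated mean was 35.4% lower, and the pairs did not overlap. Of the 48 genes, 44 fell and 0 rose in edgeR's quasi-likelihood test with Benjamini-Hochberg adjustment (adjusted p under 0.05), where 31.1% of all 12461 tested genes fell and 31.7% rose. The median log2 change was -0.65 over the mitotic genes and -0.02 over all tested genes. Both LPS libraries lay below both unstimulated libraries for 45 of the 48 genes, a pattern seen in 41.2% of all tested genes, and above them for Mad2l1 and Plk4, a pattern seen in 38.5%. Of the 48, 23 passed a stricter test against a fold change of 1.5, which 10.3% of all tested genes passed in that direction. Between the replicate libraries of 1 state, 0 of the 48 genes differed by 1.5-fold or more. Over all tested genes 3.16% were lower and 2.98% higher by that much in unstimulated replicate 1 than in replicate 2. After LPS 5.34% were lower and 4.49% higher. No gene of the 48 was higher by DESeq2 or, in edgeR, at an unadjusted p under 0.05. The counts rest on a small spread, with a typical coefficient of variation of 2.36% between paired libraries. With that coefficient set to 10%, 38 of the 48 remained lower, the calls lost being Ccnb1, Ccnb2, Cdc25c, Ube2c, Cdca8 and Cenpe. DESeq2 called 39 lower, without Ccnb1, Cdc25c, Ube2c, Cenpe and Nuf2. For DESeq2 and for the coefficient of 10%, here and below, the share over all tested genes was not tallied. Those counts show which calls were kept, and cannot be set against a background.

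The TMM scaling bears on every LPS value given here. Scaled by library size alone, the median change of all genes moved by -0.37 on the log2 scale in BMDM, and the summed mitotic level was 49.9% lower after LPS. Without TMM all 48 genes fell, including the 4 that were not called with it (Mad2l1, Kif4, Nusap1 and Plk4). The share of all tested genes called lower under that scaling is not given here, so this count cannot be set against a background.

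**Figure D2:**
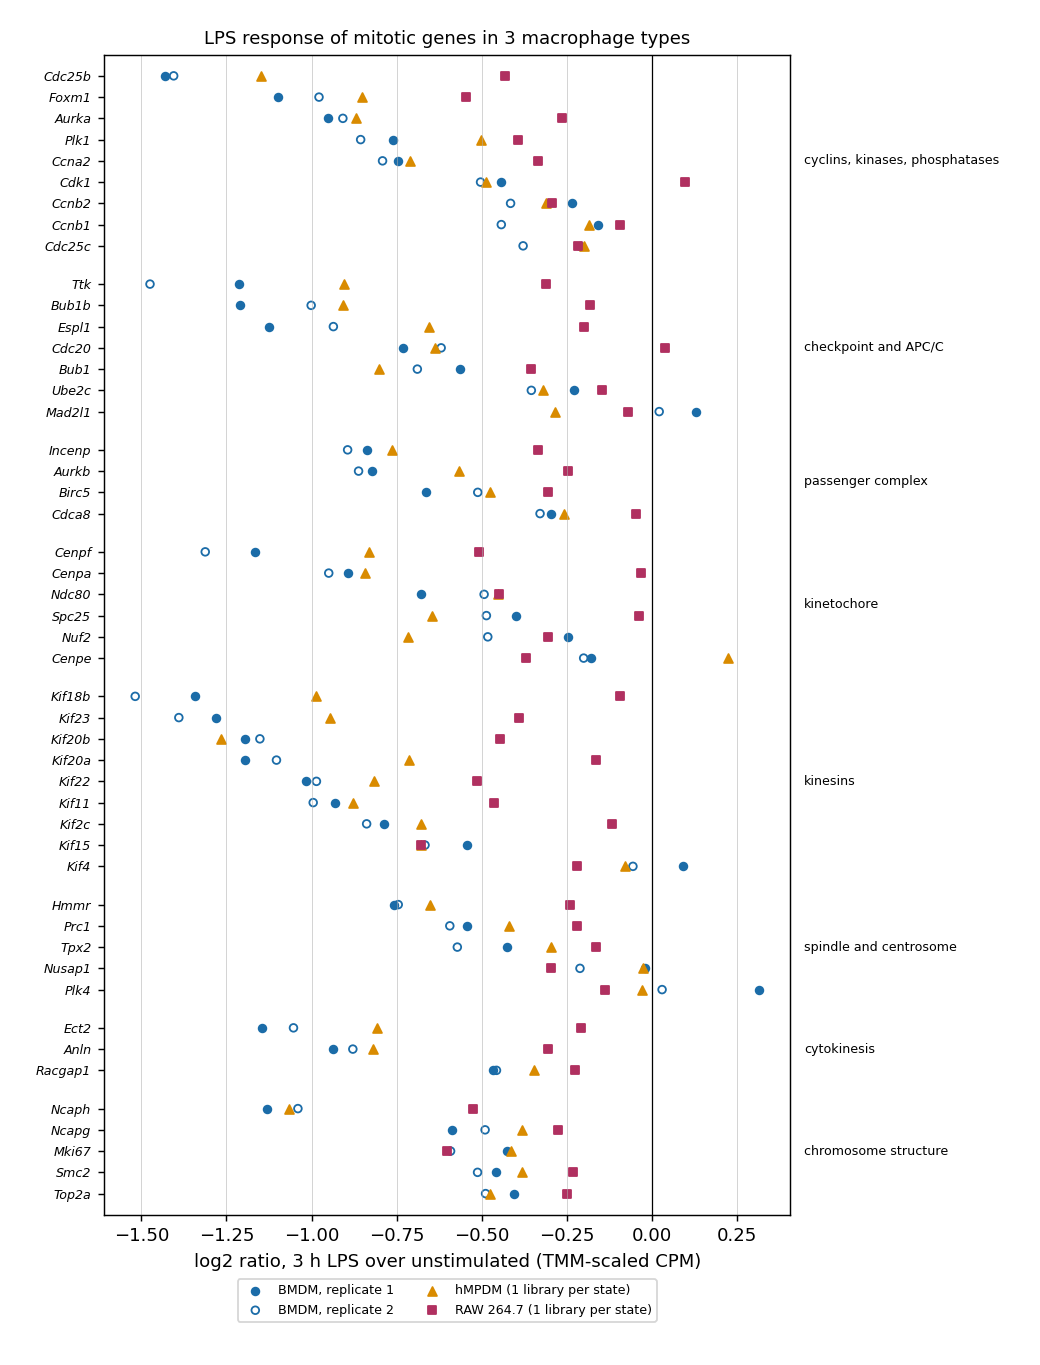
LPS response of each of the 48 mitotic genes (rows, grouped by role) as the log2 ratio of the level after 3 h of LPS to the unstimulated level (horizontal axis, TMM-scaled CPM), for BMDM replicate 1 and replicate 2 paired by number and for the single pairs of hMPDM and RAW libraries. BMDM and hMPDM points spread from above 0 to beyond -1, and RAW points lie between -0.68 and 0.10.

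All 9 genes of mitotic entry fell in BMDM, by a median of 0.77 on the log2 scale. Cdc25b (ENSMUSG00000027330.12, chr2:131186949-131198497), a phosphatase that removes the inhibitory phosphates of Cdk1, was at 109.6 and 115 CPM unstimulated and at 40.6 and 43.5 CPM after LPS. Its log2 change was -1.41 (SE 0.0591, edgeR adjusted p = 5.81e-19), with no overlap between the states. Its relative Cdc25c (ENSMUSG00000044201.9), a phosphatase of the same kind, was at 14.3 and 13.5 CPM and then at 12.4 and 10.4 CPM. The change of Cdc25c was small, -0.32 (SE 0.118, edgeR adjusted p = 0.0184), and DESeq2 did not call it (adjusted p = 0.505). It also missed the edgeR threshold without unstimulated replicate 1 (-0.28, adjusted p = 0.0755) and without LPS replicate 2 (-0.16, adjusted p = 0.458).

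The core engine of mitosis moved less than Cdc25b. Cdk1 (ENSMUSG00000019942.8, chr10:69336635-69352938), the mitotic kinase, had 158 and 161 CPM unstimulated and 116 and 113 CPM after LPS, a log2 change of -0.48 (SE 0.0452, edgeR adjusted p = 1.48e-10). Ccnb1 (ENSMUSG00000041431.12, chr13:100778650-100786570), which encodes its partner cyclin B1, had 28.3 and 31.5 CPM and then 25.4 and 23.2 CPM. That difference was -0.33 (SE 0.0852, edgeR adjusted p = 0.00145), and the groups did not overlap, but DESeq2 did not call it (adjusted p = 0.289), nor did edgeR without LPS replicate 2 (-0.24, adjusted p = 0.0924). Cyclin A2 (Ccna2), the polo kinase Plk1, the centrosomal kinase Aurka and the transcription factor Foxm1 fell by 0.77, 0.81, 0.90 and 1.01.

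Among checkpoint and anaphase-promoting complex genes, 6 of 7 fell, with a median of -0.66. Ttk (ENSMUSG00000038379.11, chr9:83834689-83872389), the kinase that starts the spindle checkpoint signal at unattached kinetochores, was at 23.8 and 25.0 CPM unstimulated and at 10.3 and 9.01 CPM after LPS. Its log2 change of -1.37 (SE 0.107, edgeR adjusted p = 2.07e-12) was the third largest in the set. Mad2l1 (ENSMUSG00000029910.10, chr6:66535390-66541033), which encodes the checkpoint effector MAD2, was at 76.8 and 79.2 CPM and then at 84.0 and 80.4 CPM. It stood slightly higher after LPS in both libraries, with an estimate of 0.07 (SE 0.0532, edgeR adjusted p = 0.285) that did not pass the test and that was -0.30 under library-size scaling. The checkpoint kinase Bub1b and the cohesin protease Espl1 fell by 1.07 and 1.00, and Ube2c, a ubiquitin-conjugating enzyme of the anaphase-promoting complex, by 0.30. The call for Ube2c was lost with DESeq2 (adjusted p = 0.0797) and with a coefficient of variation of 10% (adjusted p = 0.114).

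All 4 genes of the chromosomal passenger complex, which corrects faulty attachments and later guides cytokinesis, fell. Incenp (ENSMUSG00000024660.8, chr19:9872297-9899533), the scaffold of the complex, was at 200.4 and 213 CPM unstimulated and at 112 and 115 CPM after LPS, a change of -0.86 (SE 0.0459, edgeR adjusted p = 2.04e-16). Cdca8 (ENSMUSG00000028873.12, chr4:124918465-124939311), which encodes borealin, was at 79.6 and 79.1 CPM and then at 64.8 and 63.0 CPM, a change of -0.32 (SE 0.055, edgeR adjusted p = 1.02e-05). The subunits of 1 complex thus differed in the size of their change: the catalytic kinase Aurkb fell by 0.84 and survivin (Birc5) by 0.56.

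The kinetochore genes all fell, 6 of 6, with a median of -0.51. Cenpf (ENSMUSG00000026605.10, chr1:189640606-189688086), a large protein of the outer kinetochore, was at 97.2 and 100.3 CPM unstimulated and at 43.4 and 40.4 CPM after LPS. Its change was -1.25 (SE 0.0597, edgeR adjusted p = 1.37e-17). Cenpe (ENSMUSG00000045328.7, chr3:135212563-135273540), a kinesin that carries chromosomes to the metaphase plate, was at 116 and 123 CPM and then at 102 and 107 CPM. The libraries of the states did not overlap, and the change was -0.18 (SE 0.0496, edgeR adjusted p = 0.00184), which DESeq2 did not call (adjusted p = 0.188), nor edgeR without unstimulated replicate 2 (-0.14, adjusted p = 0.0609). Cenpa, the histone variant that marks centromeres, fell by 0.93. The Ndc80 complex, which binds microtubule ends, was represented by Ndc80, Nuf2 and Spc25, which fell by 0.56, 0.39 and 0.45.

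The kinesins had the lowest median of the 8 roles, -0.997, and 8 of 9 fell. Kif18b (ENSMUSG00000051378.10, chr11:102905529-102925124), a motor that shortens astral microtubules, was at 40.6 and 42.3 CPM unstimulated and at 16.0 and 14.8 CPM after LPS. This was the largest change of the 48 genes, -1.45 (SE 0.0861, edgeR adjusted p = 3.23e-15). Kif4 (ENSMUSG00000034311.3, chrX:100625737-100727214), a chromosome-bound motor of the spindle midzone, was at 59.9 and 60.5 CPM and then at 63.7 and 58.2 CPM. The LPS libraries of Kif4 lay on either side of the unstimulated pair, and its estimate was 0.00 (SE 0.0599, edgeR adjusted p = 0.986). Exons of Kif4 overlap those of Pdzd11 on the opposite strand over 15.1% of their length, and Pdzd11 had 4736 counts over the libraries to 5028 for Kif4. The sources do not say whether reads were counted by strand, so the 2 genes cannot be fully told apart.

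The motors of the central spindle and of spindle pole separation fell further than Kif4. Kif23, a subunit of the centralspindlin complex of cytokinesis, fell by 1.34, and its binding partner Racgap1 by 0.46. Kif20a and Kif20b, motors of the midzone and midbody, fell by 1.13 and 1.16, though 33.2% of the exon length of Kif20a is shared with Cdc23 on the opposite strand. Kif11, which pushes the spindle poles apart, fell by 0.97, and Kif22, a chromosome-arm motor, by 1.00.

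Spindle and centrosome genes were the role with the most exceptions, with 3 of 5 lower. Hmmr (ENSMUSG00000020330.12, chr11:40701395-40733422), a spindle pole protein, was at 83.6 and 88.9 CPM unstimulated and at 49.4 and 53.0 CPM after LPS, a change of -0.74 (SE 0.0594, edgeR adjusted p = 3.76e-12). Nusap1 (ENSMUSG00000027306.11, chr2:119618298-119651244), which bundles spindle microtubules, was at 80.4 and 89.1 CPM and then at 79.3 and 77.0 CPM. The states of Nusap1 did not overlap, but the estimate of -0.13 (SE 0.0571, edgeR adjusted p = 0.0539) missed the threshold. It passed without unstimulated replicate 1 (-0.20, adjusted p = 0.00801) and without LPS replicate 1 (-0.14, adjusted p = 0.0457). Plk4 (ENSMUSG00000025758.7, chr3:40800019-40816883), the kinase that starts centriole duplication, was at 40.2 and 41.4 CPM unstimulated and at 50.0 and 42.2 CPM after LPS. With TMM scaling both of its LPS libraries were above the unstimulated pair, and the estimate of 0.14 (SE 0.0724, edgeR adjusted p = 0.0855) did not pass. Tpx2, which activates Aurka, and Prc1, which crosslinks the midzone, fell by 0.51 and 0.57.

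All 3 cytokinesis genes fell. Ect2 (ENSMUSG00000027699.15, chr3:27097222-27153878), the exchange factor that activates RhoA at the cleavage furrow, was at 73.5 and 73.0 CPM unstimulated and at 33.2 and 35.2 CPM after LPS, a change of -1.09 (SE 0.0639, edgeR adjusted p = 2.48e-15). Racgap1 (ENSMUSG00000023015.9, chr15:99620496-99651656), which recruits Ect2 to the midzone, was at 141 and 143 CPM and then at 102 and 104 CPM, a change of -0.46 (SE 0.0465, edgeR adjusted p = 6.14e-10). Anln, which links the actin ring to the furrow, fell by 0.90.

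All 5 genes of chromosome structure fell, among them Mki67 and Top2a, which had the highest CPM of the 48 genes in unstimulated BMDM. Mki67 (ENSMUSG00000031004.7, chr7:135689788-135716379), which coats mitotic chromosomes, was at 769 and 821 CPM unstimulated and at 572 and 545 CPM after LPS. Its change was -0.51 (SE 0.0381, edgeR adjusted p = 6.74e-13). Top2a (ENSMUSG00000020914.13, chr11:98992943-99024189), which untangles sister chromatids, was at 446 and 453 CPM and then at 337 and 323 CPM, a change of -0.45 (SE 0.0374, edgeR adjusted p = 8.11e-12). These widely used proliferation markers fell by less than the median of the set. Ncaph (ENSMUSG00000034906.11, chr2:127103809-127133954), the kleisin subunit of condensin I, was at 75.5 and 78.5 CPM and then at 34.4 and 38.2 CPM, a change of -1.07 (SE 0.0645, edgeR adjusted p = 4.94e-15). Other condensin genes changed less, with Ncapg at -0.52 and Smc2 at -0.49.

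The size of the response followed neither abundance nor length. Over the 48 genes, Pearson's r between the BMDM response and the unstimulated level per kilobase of exon was -0.00482, and between the response and the exon length -0.0279. The order of the genes was alike in the paired replicates, with r = 0.959 over 48 genes that share those libraries. Genes with TTTGAA in the promoter had a median change of -0.74 (31 genes, of which 30 fell, with Kif4 the exception), and genes without it -0.36 (10 genes, of which 7 fell). The ranges overlapped, from -1.45 to 0.00 with the hexamer and from -1.41 to 0.14 without it, and the difference was not tested. Mad2l1, Nusap1 and Plk4, the other 3 that did not pass, were among the 10 without it. For Mad2l1 and Plk4, however, the gene start in the count table lay outside the bases searched. Of those 10, Ccnb1, Birc5, Cenpe and Plk4 carried the variant TTTAAA. The median change did not follow the number of CCAAT boxes in the same way. It was -0.64 with at least 2 copies (19 genes), -0.81 with 1 copy (11 genes) and -0.56 with none (11 genes).

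In hMPDM the same genes were lower after LPS, to a similar size. The summed level was 4243 CPM unstimulated and 2908 CPM after LPS, 31.5% lower, with 1 library per state and so no test. The median log2 ratio of the 48 genes was -0.65, as in BMDM, and 47 of 48 ratios were below 0. By the untested ratio, 26 of the 48 genes were lower by 1.5-fold or more, where 22.0% of all genes were. The same rule on BMDM means gave 27 of 48 against 19.3%.

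The single hMPDM values followed the BMDM order. Mki67 was at 538 CPM unstimulated and 403 CPM after LPS, with a log2 ratio of -0.42 (95% counting interval -0.49 to -0.34, which covers counting error only). Kif20b, the lowest of the set, was at 70.2 and then 29.2 CPM, a ratio of -1.26 (interval -1.53 to -1.01). Cdc25b was at 86.1 and then 38.8 CPM, a ratio of -1.15 (interval -1.38 to -0.92). Across the 48 genes the hMPDM log2 ratio and the log2 ratio of the BMDM means had Pearson's r = 0.881 and Spearman's rho = 0.912. This is a description over genes that are not independent.

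Cenpe was the 1 gene above 0 in hMPDM, at 95.9 CPM unstimulated and 112 CPM after LPS (ratio 0.22, interval 0.08 to 0.37). The difference between the responses of hMPDM and BMDM was tested with the spread of the BMDM pairs standing in for hMPDM. Of the 48 genes, 3 had a higher response in hMPDM and 0 a lower one by edgeR's quasi-likelihood test, where 3.96% of all tested genes were higher and 3.89% lower. The 3 genes, named after their values were seen, were Cenpe (difference 0.41, adjusted p = 0.00714), Kif20a (0.41, adjusted p = 0.0421) and Kif23 (0.40, adjusted p = 0.0222). This share is near the background, the median difference over the 48 genes was 0.10, and DESeq2 and the fit with a coefficient of variation of 10% called 0 in either direction. Against a fold change of 1.5, 0 were higher, where 0.345% of all tested genes were. Without unstimulated BMDM replicate 2, 1 gene was higher. At an unadjusted p under 0.05, edgeR had 8 higher and 2 lower.

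The highest and lowest estimates of that difference did not pass. They were 0.47 for Ttk (SE 0.25, edgeR adjusted p = 0.339), 0.46 for Kif18b (SE 0.207, 0.224) and 0.42 for Cenpf (SE 0.134, 0.0502) at the upper end. At the lower end were -0.35 for Mad2l1 (SE 0.115, edgeR adjusted p = 0.0576), -0.33 for Nuf2 (SE 0.155, 0.259) and -0.20 for Spc25 (SE 0.146, 0.549). Mad2l1 was at 70.2 CPM in unstimulated hMPDM and 57.6 CPM after LPS, a ratio of -0.29 (interval -0.48 to -0.09), against BMDM levels that were slightly higher after LPS with TMM scaling and lower with library-size scaling. With the BMDM share of 10.8% taken out of the stimulated hMPDM library, its difference became -0.43 (edgeR adjusted p = 0.0177) and passed, as it did without LPS replicate 2 of BMDM (-0.39, adjusted p = 0.0332). Cenpf passed without unstimulated replicate 1 (0.45, adjusted p = 0.034) or LPS replicate 1 of BMDM (0.45, adjusted p = 0.0225).

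In RAW the mitotic genes were lower by less. The summed level was 6734 CPM unstimulated and 5434 CPM after LPS, 19.3% lower, again with 1 library per state. The median log2 ratio was -0.26, and 2 of 48 genes, Kif15 and Mki67, were lower by 1.5-fold or more, where 11.7% of all genes were. Mki67 was at 959.9 and then 632 CPM, a ratio of -0.60 (95% counting interval -0.67 to -0.53), beside an estimate of -0.51 in BMDM. Kif15, a motor that helps to hold the spindle bipolar, was at 84.2 and then 52.6 CPM, a ratio of -0.68 (interval -0.92 to -0.43).

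Cdk1 and Cdc20 were the 2 genes above 0 in RAW. Cdk1 was at 157 CPM unstimulated and 168 CPM after LPS, a ratio of 0.10 (interval -0.06 to 0.25). Cdc20, the activator of the anaphase-promoting complex, was at 75.6 and 77.6 CPM, a ratio of 0.04 (interval -0.19 to 0.27). Both intervals include 0, so neither difference exceeded counting error.

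The difference between the LPS responses of RAW and BMDM was tested in the same way, and 29 of the 48 genes had a higher response in RAW, that is, a smaller drop or none. None had a lower response, by DESeq2 or at an unadjusted p under 0.05 either. Over all tested genes 10.0% were higher and 12.7% lower by edgeR's quasi-likelihood test, and the median difference was 0.43 for the 48 genes and 0.00 for all tested genes. The 29 included 7 of 9 kinesins, 6 of 9 mitotic entry genes and 4 of 7 checkpoint genes. The count rests on the small spread of the BMDM pairs. It was 13 with DESeq2 and 9 with a coefficient of variation of 10%, for which no share over all tested genes was tallied. In the test against a fold change of 1.5 it was 8, where 2.70% of all tested genes passed in that direction.

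Those 8 were Cdc25b, Bub1b, Ttk, Cenpa, Kif18b, Kif20a, Kif23 and Ect2. Kif18b was at 48.4 CPM in unstimulated RAW and 45.3 CPM after LPS, a ratio of -0.09 (interval -0.38 to 0.20), where BMDM had gone from a mean of 41.5 to 15.4 CPM. Its difference in response was 1.35 (SE 0.171, edgeR adjusted p = 2.89e-07). For Ttk, RAW had 49.9 and then 40.2 CPM, and the difference was 1.06 (SE 0.187, edgeR adjusted p = 5.62e-05), which DESeq2 did not call (adjusted p = 0.0976). For Cdc25b, RAW had 95.2 and then 70.6 CPM, and the difference was 0.98 (SE 0.131, edgeR adjusted p = 8.63e-07). Cenpa went from 101 to 98.6 CPM in RAW and from 120.2 and 119.5 to 64.7 and 61.9 CPM in BMDM.

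The lowest differences were -0.28 for Plk4 (SE 0.169, edgeR adjusted p = 0.27), -0.22 for Kif4 (SE 0.142, 0.31) and -0.18 for Cenpe (SE 0.107, 0.253), and none passed. Mki67 also had a response close to that of BMDM, with a difference of -0.09 (SE 0.0716, edgeR adjusted p = 0.432). Over the 48 genes, the RAW log2 ratio and the log2 ratio of the BMDM means had Pearson's r = 0.305 and Spearman's rho = 0.335.

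**Figure D3:**
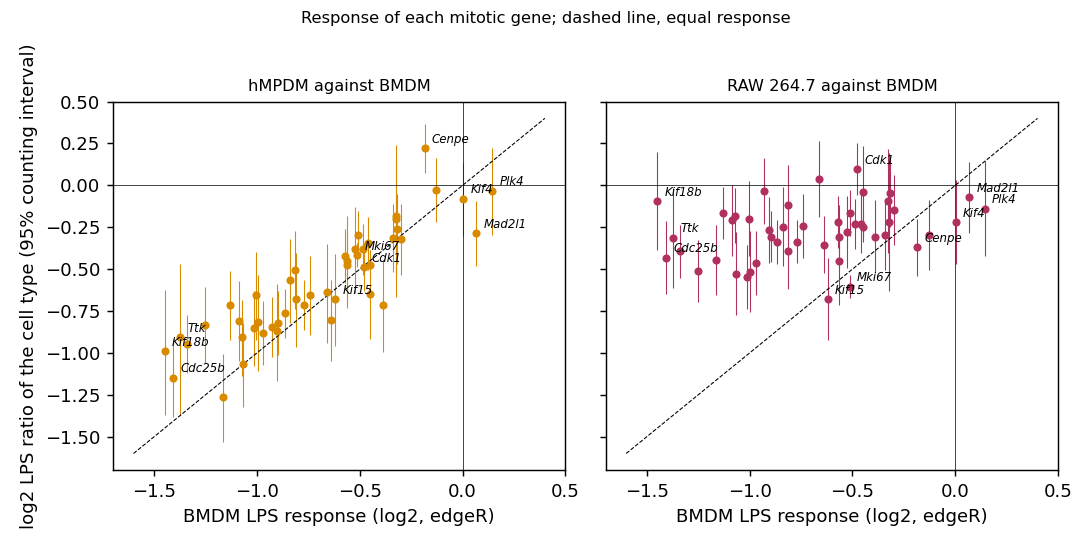
LPS response of the 48 mitotic genes in hMPDM (left) and RAW 264.7 (right), as the log2 ratio of single libraries with its 95% counting interval (vertical axis), against the BMDM response estimated in edgeR (log2, horizontal axis). Points for hMPDM run along the dashed line of equal response, and most RAW points lie above it, with Mki67 and Kif15 near it.

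A fit with 1 LPS response over all 3 cell types called 43 of the 48 genes lower and 0 higher, where edgeR's quasi-likelihood test called 24.2% of all tested genes lower and 25.0% higher. DESeq2 called 41 lower and 0 higher, and no gene was higher at an unadjusted p under 0.05. The median of this shared response was -0.60. The lowest were Cdc25b at -1.12 (SE 0.162, edgeR adjusted p = 0.0019), Kif20b at -1.01 (SE 0.135, 0.00141) and Kif23 at -1.01 (SE 0.157, 0.00249). The highest were Plk4 at 0.05 (SE 0.0855, edgeR adjusted p = 0.63), Mad2l1 at -0.05 (SE 0.0744, 0.636) and Kif4 at -0.06 (SE 0.0647, 0.471). Together with Cenpe and Nusap1 these were the 5 genes not called. Against a fold change of 1.5, 8 of the 48 were lower, where 5.26% of all tested genes were. BMDM weighs most in this fit because it has the most libraries. The fit gives each gene the same response in every cell type, although 29 of the 48 responded differently in RAW and BMDM by edgeR. The untested median ratio in RAW was -0.26, so the -0.60 does not describe RAW.

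Before stimulation the 3 cell types differed in their mitotic level. RAW had the highest sum, 6734 CPM, or 1.26 times the BMDM mean of 5338 CPM (SD 142, n = 2). The hMPDM sum of 4243 CPM was 0.795 times that mean. The distance between BMDM and either other cell type exceeded the distance between the BMDM libraries. After LPS the RAW sum was 1.58 times the BMDM mean of 3448 CPM (SD 26.3, n = 2), and the hMPDM sum was 0.843 times it.

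**Figure D4:**
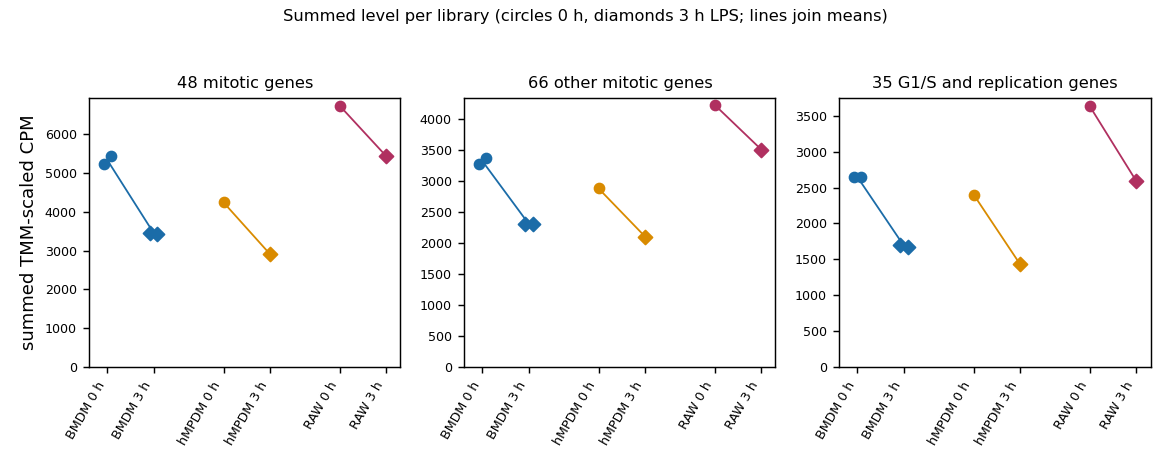
Summed level (TMM-scaled CPM, vertical axis) of the 48 mitotic genes, of 66 other mitotic genes and of 35 G1/S and DNA replication genes in each library at 0 h (circles) and after 3 h of LPS (diamonds), with lines joining the means. For the 48 genes BMDM went from a mean of 5338 to 3448 CPM, hMPDM from 4243 to 2908 CPM and RAW from 6734 to 5434 CPM.

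In unstimulated hMPDM, 39 of the 48 genes were lower than in BMDM and 0 higher, where edgeR's quasi-likelihood test called 19.2% of all tested genes lower and 19.0% higher. The differences were small, with a median of -0.32, and all 48 estimates were below 0. None was higher by DESeq2 or at an unadjusted p under 0.05. The largest were for Mki67 at -0.56 (SE 0.046, edgeR adjusted p = 2.34e-11), which had 538 CPM in hMPDM against 769 and 821 CPM in BMDM, and for Prc1 at -0.52 (SE 0.0516, 1.46e-09), which had 111 CPM against 157 and 162 CPM. Hmmr followed at -0.48 (SE 0.0635, edgeR adjusted p = 2.87e-07), with 61.8 CPM against 83.6 and 88.9 CPM. In each of these the hMPDM library lay below both BMDM libraries. The smallest were for Kif20b at -0.05 (SE 0.0608, edgeR adjusted p = 0.522), Cenpa at -0.05 (SE 0.0524, 0.445) and Cdc25c at -0.09 (SE 0.121, 0.608). This comparison depends most on how well the BMDM pairs stand for the spread of hMPDM: with a coefficient of variation of 10%, 2 of 48 genes passed (Mki67 and Prc1), with DESeq2 10 did, and 0 passed against a fold change of 1.5, which 5.02% of all tested genes passed in that direction.

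In unstimulated RAW, 37 of the 48 genes were higher than in BMDM and 2 lower, where edgeR's quasi-likelihood test called 27.1% of all tested genes higher and 31.3% lower. The median difference was 0.36, against -0.06 over all tested genes. All 7 checkpoint and anaphase-promoting complex genes and all 4 passenger complex genes were among the higher ones. Of these, DESeq2 did not call Mad2l1, Ube2c, Aurkb and Cdca8, and with a coefficient of variation of 10% Birc5 was the 1 passenger complex gene called. Ttk was at 49.9 CPM in RAW against 23.8 and 25.0 CPM in BMDM, a difference of 1.03 (SE 0.124, edgeR adjusted p = 3.13e-08). Bub1, a kinase that recruits checkpoint proteins to the kinetochore, was at 153 CPM against 76.2 and 76.8 CPM, a difference of 1.00 (SE 0.0762, edgeR adjusted p = 2.69e-12). Bub1b, its relative, was at 157 CPM against 83.9 and 84.8 CPM, a difference of 0.90 (SE 0.0782, edgeR adjusted p = 4.61e-11).

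The 2 lower genes were Cenpa and Cdc25b. Cenpa was at 101 CPM in RAW against 120.2 and 119.5 CPM in BMDM (-0.25, SE 0.0799, edgeR adjusted p = 0.00922), and Cdc25b was at 95.2 CPM against 109.6 and 115 CPM (-0.24, SE 0.0843, 0.0157). Neither was called under library-size scaling, which moved the median of all genes by 0.20 in this comparison, nor by DESeq2, and Cdc25b was not called without unstimulated BMDM replicate 2 (-0.19, adjusted p = 0.0782). Spc25 followed at -0.14 (SE 0.105, edgeR adjusted p = 0.252), with 54.9 CPM against 59.2 and 61.8 CPM. The higher calls numbered 26 with DESeq2, 20 with a coefficient of variation of 10% and 7 against a fold change of 1.5, which 11.2% of all tested genes passed. Those 7 were Cdc25c, Aurka, Bub1, Bub1b, Ttk, Kif15 and Ncapg. In the lower direction 0 passed that test, against 14.9% of all tested genes.

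**Figure D5:**
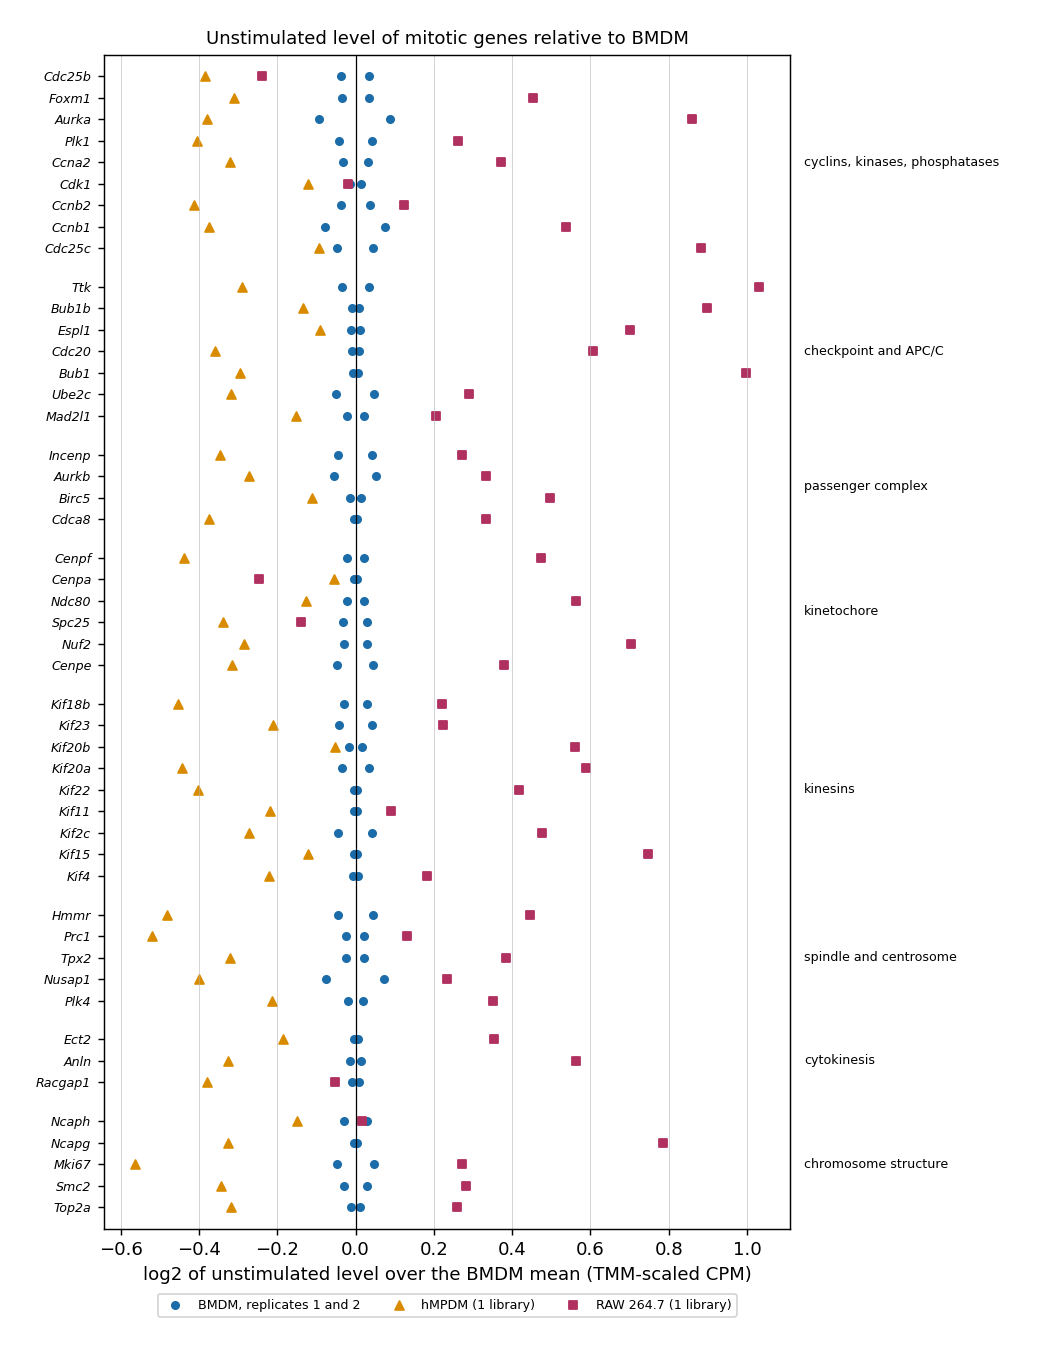
Unstimulated level of each of the 48 mitotic genes (rows, grouped by role) as the log2 ratio to the BMDM mean (horizontal axis, TMM-scaled CPM), for both BMDM libraries and the single hMPDM and RAW libraries. The BMDM points hug 0, all hMPDM points lie left of it, and most RAW points lie right of it, with Ttk at 1.03.

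Per kilobase of exon, the order of the mitotic transcripts was nearly the same in the 3 cell types. In unstimulated BMDM the highest levels per kilobase were those of Mki67 (78.9 CPM per kb), Incenp (64.2), Ccnb2 (58.4), Ccna2 (56.7) and Top2a (49.9). The lowest was that of Ttk (4.97 CPM per kb), followed by Cenpf (6.40), Plk4 (6.96) and Ccnb1 (7.09). The cyclin B1 gene was thus far below the cyclin B2 gene on this scale. Across the 48 genes Pearson's r between the level per kilobase in BMDM and that in hMPDM was 0.991, and that in RAW 0.952, as a description. Both sides were divided by the same exon lengths, which can raise r by itself, and no value without that division is given.

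Other genes of cell division moved with the 48, on lists that do not contain them. Of 66 further mitotic genes, 52 fell and 4 rose in BMDM after LPS by edgeR, where 31.1% of all tested genes fell and 31.7% rose. The median of the 66 was -0.73, and 39 fell and 1 rose by DESeq2. The largest changes among those that passed were in Fbxo5 at -2.51 (SE 0.119, edgeR adjusted p = 1.21e-17), an inhibitor of the anaphase-promoting complex, Sapcd2 at -2.38, Depdc1b at -2.34 and the kinesin Kif18a at -1.91. Pttg1, which encodes securin, the inhibitor of separase, was the highest, at 1.47. In RAW against BMDM at rest 46 of the 66 were higher and 2 lower by edgeR (26 and 1 by DESeq2), where edgeR called 27.1% of all tested genes higher and 31.3% lower. Pttg1 was again the highest at 1.58 (SE 0.123, edgeR adjusted p = 3.76e-12). The LPS response of Pttg1 in RAW was lower than in BMDM by a log2 difference of -1.67 (SE 0.158, edgeR adjusted p = 1.06e-09). By edgeR 30 genes of that list had a higher response and 3, Pttg1 among them, a lower one. Over all tested genes 10.0% were higher and 12.7% lower. DESeq2 called 7 higher and 1 lower there.

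Genes of the G1/S transition and DNA replication fell in 31 of 35 cases in BMDM, with a median of -0.79, and 0 rose by edgeR, by DESeq2 or at an unadjusted p under 0.05. Over all tested genes 31.1% fell and 31.7% rose by edgeR. The largest changes were in Cdc6 at -3.02 (SE 0.149, edgeR adjusted p = 3.41e-17), which loads the replicative helicase, and in Clspn at -1.99, Cdc7 at -1.89 and Ccne2 at -1.87. In RAW 13 of the 35 had a higher LPS response than in BMDM and 2 a lower one by edgeR, against 10.0% and 12.7% of all tested genes, with Cdc6 the highest at 1.86 (SE 0.266, edgeR adjusted p = 2.29e-06). DESeq2 called 4 higher and 1 lower in that comparison. In hMPDM at rest 10 of the 35 were lower than in BMDM and 1 higher by edgeR, where 19.2% of all tested genes were lower and 19.0% higher, and DESeq2 called 1 lower and 0 higher.

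Known regulators of the mitotic wave were taken as a further pair of lists. Of 19 MuvB, E2F and pocket protein genes, 12 fell and 2 rose in BMDM after LPS, where 31.1% of all tested genes fell and 31.7% rose. The median of the 19 was -0.43, led by the E2F genes E2f2 at -1.87, E2f7 at -1.38 and E2f8 at -0.94, and by Tfdp2 at -1.11. Of 10 genes that control mitotic entry, 4 rose and 5 fell, where 31.7% of all tested genes rose and 31.1% fell. Neither share is far from the background for a list of this size. Most of the 10 restrain entry, but the list also holds Mastl, which does not. The stress gene Gadd45b rose by 4.97 (SE 0.064, edgeR adjusted p = 3.46e-32) and the Cdk inhibitor gene Cdkn1a, which encodes p21, by 2.55 (SE 0.0391, edgeR adjusted p = 2.85e-30). In the opposite direction, Wee1, the kinase that phosphorylates and inhibits Cdk1, was at -1.89 (SE 0.119, edgeR adjusted p = 1.34e-14) and Gadd45a at -1.36. Gadd45a had a higher response in RAW than in BMDM, with a difference of 2.99 (SE 0.33, edgeR adjusted p = 2.28e-08), the largest that passed among the 10 genes. Gadd45b, Cdkn1a and Fzr1 had a lower response in RAW than in BMDM, with differences of -2.39 for Gadd45b (SE 0.267, edgeR adjusted p = 3.1e-08), -2.02 for Cdkn1a (SE 0.103, 1.74e-15) and -0.45 for Fzr1 (SE 0.149, 0.0262). Thus 1 of the 10 was higher and 3 lower by edgeR, where 10.0% of all tested genes were higher and 12.7% lower. DESeq2 called 1 higher and 2 lower. Of the 19 MuvB, E2F and pocket protein genes, 2 were higher and 3 lower in that comparison by edgeR. Their median LPS ratio, not tested, was -0.62 in RAW and -0.41 in BMDM.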

How the data were processed

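The values analysed are the deposited raw counts of reads for each gene, not normalized, in a table with the column layout of featureCounts per the file headers. The tools were STAR, featureCounts, cutadapt, bedtools and SAMtools and the build was mm10, per the submitters' processing notes, which give no versions or roles. Aligner settings, the handling of reads with several matches and the strand setting are not stated there. Of 10 value columns, 8 matched a single labelled sample and 2 were not used. Symbols were matched for 42462 of 43346 identifiers.

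Counts were analysed in edgeR 4.0.16 (R 4.3.3) with filterByExpr and TMM scaling, which left 12461 genes. The main quasi-likelihood model gave each of the 6 groups its own coefficient. Its 2 residual degrees of freedom came from the BMDM pairs, whose spread was taken to hold for hMPDM and RAW as well. The common LPS response came from an additive model of cell type and treatment, with 4 residual degrees of freedom. Adjusted p-values are Benjamini-Hochberg values over all tested genes. An SE is the log2 estimate divided by the square root of the F statistic. Ratios of single libraries carry exact 95% counting intervals, which cover counting error only, as does the zero-count limit of 3 counts (0.155 to 0.963 CPM at these depths). The script was tested on simulated data. DESeq2 1.42.0, other scalings and filters, a fixed coefficient of variation, a test against a 1.5-fold change, a replicate block and leaving out libraries were the alternatives.

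The genes, the lists and the tests were chosen with earlier results of these data known. Genes named with all BMDM values are, in each role, those with the largest and the smallest LPS estimate in BMDM, plus Mki67, Top2a, Cdk1 and Ccnb1. In the other tested comparisons the 3 highest and 3 lowest estimates are named, and in other lists up to 4 leaders that passed. Other genes of the set are given by their change alone, to cover each role.

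Equal BMDM replicate numbers did not mark shared deviations, so the main fit has no block. Promoters are from RefSeq (GRCm38.p6). For 37 of 41, the last 25 bases were found in sense in a transcript of the gene, and for 0 in reverse. Where in the transcript they lay was not checked, so this bears on the strand and not on the place of the start. Markers of B cells did not exceed 27 counts and those of erythroid cells 2 counts in any library.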

Additional observations from a re-analysis of the deposited data

Results flagged for a closer look

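The LPS response differed between cell types for some of the mitotic genes, by a test of the difference itself. Of the 48 genes, 29 had a higher response in RAW than in BMDM, against 10.0% of all tested genes, and 13 did by DESeq2. The largest such differences on the log2 scale were 1.35 for Kif18b, 1.06 for Ttk and 0.98 for Cdc25b, each higher in the 1 RAW pair than in both BMDM pairs. Between hMPDM and BMDM, 3 of the 48 genes had a higher response, a share near the 3.96% of all tested genes, and DESeq2 called 0. All rest on 1 library per state in RAW and hMPDM.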

How the results depend on the processing

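The lower calls after LPS in BMDM held between 38 and 48 of 48 genes under every alternative run except the test against a 1.5-fold change (23), and those of the common response between 37 and 48 except in that test (8). Among these fits, shares over all tested genes are given for the main one and the 1.5-fold test only. With library size in place of TMM, the direction turned for Mad2l1 (-0.30), Kif4 (-0.36) and Plk4 in BMDM, and for Plk4 (-0.26) in the common response. The median ratio then became -1.04 in hMPDM and -0.36 in RAW. With that scaling 0 genes were lower in unstimulated RAW than in BMDM, and 1 had a lower response in hMPDM. Unstimulated hMPDM had 10 lower genes with DESeq2, 2 with a coefficient of variation of 10% and 0 against a 1.5-fold change. Unstimulated RAW had 0 lower genes in all 3, and 20 higher with the fixed coefficient and 7 against the fold. Higher responses in hMPDM numbered 0 in all 3, and in RAW 13, 9 and 8.

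Leaving out 1 BMDM library at a time gave 1 to 2 genes lower in unstimulated RAW, 1 to 4 with a higher and 0 to 1 with a lower response in hMPDM, and 0 to 1 higher after LPS in BMDM. With the BMDM share taken out of the stimulated hMPDM library, 1 gene had a lower response there. The cause of each change was not tested.

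Deviations of equally numbered BMDM libraries had Pearson's r = -0.026 over 12461 genes, and 0.0985 over the 48. Over the 7048 genes at 20 CPM or more r was -0.113 and Spearman's rho -0.145, a weak relation of opposite sign to a shared deviation. A replicate block left all counts within 1.5 times (44 lower in BMDM, 4 higher responses in hMPDM, 28 in RAW) and took Cenpf past the threshold in hMPDM (0.42, adjusted p = 0.0496). A crossed block, added after seeing the data, gave 1 gene higher in BMDM and 1 lower response in hMPDM. Depth limits the stimulated hMPDM library most, with 49 counts for its least counted gene against 98 or more in the others except LPS replicate 1 of BMDM (68).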
